A study of Mus musculus with 40 samples.

Results

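The genes examined were the 10 that encode the core of store-operated calcium entry and of calcium release from the stores in T cells: the channel subunits *Orai1*, *Orai2* and *Orai3*, the store sensors *Stim1* and *Stim2*, the brake *Saraf*, the inositol trisphosphate (IP3) receptors *Itpr1*, *Itpr2* and *Itpr3*, and the ryanodine receptor *Ryr2*. They were taken by symbol from an RNA-seq table of 21950 genes, and each symbol had 1 row. The libraries came from 8 groups of mouse CD4+ T cells with 3 replicates each. Conventional T cells (Tconvs) and thymus-derived Tregs (tTregs, labelled nTreg) were sorted from spleens of Foxp3 reporter mice on a C57BL/6 background, 2 to 4 months old, as reporter-negative and reporter-positive CD4+ cells, and each was taken resting and after activation. Induced Tregs (iTregs) were made from naive CD4+ T cells of 6-week-old reporter mice by 4 days of CD3 and CD28 stimulation with IL-2 and 2 ng/ml TGF-β, sorted by the reporter and rested for 1 day. They were taken resting, after restimulation through CD3 and CD28, with an ORAI inhibitor (labelled ORAIinh) and with CsA (cyclosporin A, an inhibitor of calcineurin). The labels of both inhibitor groups do not mention restimulation, which the study's text gives for its inhibitor treatments. The reporter sort cannot separate tTregs from Tregs that arose in the periphery. Nothing states that replicates came from separate mice, so the p-values below rest on the spread between these samples. That spread was estimated for each gene over all 8 groups together, not from the groups compared alone.

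When a T cell receptor is engaged, phospholipase C makes IP3, which opens IP3 receptors in the endoplasmic reticulum and lets stored calcium out. STIM proteins in that membrane sense the loss, move to junctions with the plasma membrane and open ORAI channels, through which calcium enters while the stores stay low. SARAF binds STIM proteins and promotes slow inactivation of the current. Ryanodine receptors are a separate family of store-release channels, of which RYR2 is best known from heart muscle. In T cells sustained calcium entry keeps calcineurin active and NFAT in the nucleus, and loss of *Orai1* or *Stim1* can lower that entry.

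The libraries held 5256800 to 15685234 reads on genes. Values are normalized counts, which are gene counts divided by 1 size factor per library, and 3 reads, taken as the floor of detection, were worth 2.12 to 5.45 normalized counts. The tTreg groups had the lowest median depths and the widest replicate spread. The median SD over genes on the log2 scale was 0.20 in resting and 0.22 in activated tTregs, against 0.10 to 0.14 in the other groups. *Foxp3* was at 7218 to 7767 in resting tTregs, 1178 to 1338 in resting iTregs and 9.65 to 11.3 in resting Tconvs. That order is given for *Foxp3* alone, as not every other Treg marker gene kept it. *Cd4* was at 3369 or more in every library, and the B cell gene *Ms4a1*, the NK cell gene *Ncr1* and the platelet genes *Pf4* and *Ppbp* were at 0 in all tTreg libraries. Of markers of other cell types, *Cd8b1* (148 to 166), *Cd79b* (122 to 126) and *Zbtb46* (80.9 to 110) were read in resting tTregs, and *Cd8b1* (220.1 to 234) and *Zbtb46* (71.1 to 93.6) in resting Tconvs as well. Fewer cells expressing a gene and less RNA per cell cannot be told apart in such bulk samples.

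A gene was called different between groups where the adjusted p was under 0.05 and the log2 difference larger than 0.5 in size, in a limma fit of log2(normalized count + 1) over all 24 libraries and 11725 genes with Benjamini-Hochberg adjustment. Every adjusted p below is from that fit, and every fold or log2 difference is on that scale. All 10 genes passed the filter on low values. *Ryr2* passed through its tTreg libraries alone, so its passing and its difference from the other groups go together. It is described from its reads without a p against tTregs, and the counts of genes below are over the other 9 unless 10 are named.

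*Orai2*, which encodes a subunit that joins ORAI1 in channels and is known to lower the current of mixed channels, had the widest range of the 3 channel genes. Its normalized counts were 3077, 3241 and 3169 in resting Tconvs and 672, 677 and 662 in activated Tconvs. In tTregs they were 952, 1011 and 1324 at rest and 1192, 926 and 1213 after activation, so that the tTreg groups overlapped each other and lay between the Tconv states. iTregs had the lowest levels, 591, 609 and 539 at rest and 337, 378 and 318 after restimulation, with no overlap between these groups. Activation of Tconvs left 21.2% of the resting level (log2 difference -2.24 ± 0.11, SE; adjusted p = 1.24e-13), whereas in tTregs the difference was 0.02 ± 0.11 (adjusted p = 0.886). Restimulation lowered *Orai2* in iTregs by 0.75 on the log2 scale (SE 0.11; adjusted p = 3.9e-05). The responses themselves differed: that of tTregs was 2.26 ± 0.15 above that of Tconvs (adjusted p = 1.57e-10), and that of iTregs 0.78 below that of tTregs (adjusted p = 0.000751), a call that was lost without the replicate 1 libraries at -0.60.

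*Orai3*, a subunit found in mammals only, moved little. Its 24 values lay between 274 and 515 normalized counts, with the lowest group in activated Tconvs (275, 274 and 291) and the highest in activated tTregs (462, 398 and 507). Those groups did not overlap and differed by 0.69 ± 0.10 (adjusted p = 5.7e-06). *Orai3* was also 0.56 higher in resting iTregs than in activated Tconvs (adjusted p = 9.16e-05), which fell below the fold threshold under quantile normalization and with edgeR. No stimulation changed it past the thresholds, the largest difference being -0.27 in Tconvs (adjusted p = 0.0263).

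*Orai1*, a pore subunit of calcium entry in T cells, was called in none of the 16 comparisons. Tconvs had 96.7, 116 and 118 normalized counts at rest and 125, 158 and 137 after activation. Resting tTregs had 122, 81.7 and 107 and resting iTregs 103, 121 and 84.2, and these overlapped with resting Tconvs. Activated Tconvs lay above resting Tconvs in all 3 libraries, but the difference of 0.34 had a 95% interval from -0.01 to 0.68 (adjusted p = 0.081). The largest difference of *Orai1* was -0.45 between resting iTregs and activated Tconvs (adjusted p = 0.0246), short of the fold threshold, and it passed under quantile normalization (-0.61), with edgeR (-0.53) and without the replicate 1 libraries (-0.54). The difference between activated and resting tTregs was 0.08, with an interval from -0.27 to 0.42.

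The promoters of *Orai2*, *Orai3*, *Stim1* and *Ryr2* are shown because *Orai2* and *Stim1* fell together in activated Tconvs, *Orai3* did not, and *Ryr2* was read mainly in tTregs. Each is the RefSeq window (GRCm38.p6) from 250 bases before to 50 bases after the gene's start, written 5′ to 3′ on the gene's strand, at chr5:136170607-136170906 (minus strand) for *Orai2*, chr7:127769565-127769864 (plus) for *Orai3*, chr7:102267569-102267868 (plus) for *Stim1* and chr13:12106896-12107195 (minus) for *Ryr2*. Capitals mark matches on either strand to the NFAT core GGAAA, the AP-1 site TGANTCA and the forkhead site GTAAACA, motifs whose matches did not overlap here.

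Orai2: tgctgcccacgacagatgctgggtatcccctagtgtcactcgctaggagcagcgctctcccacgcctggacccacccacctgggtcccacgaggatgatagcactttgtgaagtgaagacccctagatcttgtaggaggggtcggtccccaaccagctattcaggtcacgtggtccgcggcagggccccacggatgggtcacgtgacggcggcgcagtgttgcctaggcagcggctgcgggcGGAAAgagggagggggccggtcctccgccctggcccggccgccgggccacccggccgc
Orai3: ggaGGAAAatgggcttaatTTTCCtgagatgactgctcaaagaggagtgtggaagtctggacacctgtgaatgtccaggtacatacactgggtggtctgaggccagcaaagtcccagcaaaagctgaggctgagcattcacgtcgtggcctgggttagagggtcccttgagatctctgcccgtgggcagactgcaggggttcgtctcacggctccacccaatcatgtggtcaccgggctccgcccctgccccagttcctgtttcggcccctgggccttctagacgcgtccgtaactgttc
Stim1: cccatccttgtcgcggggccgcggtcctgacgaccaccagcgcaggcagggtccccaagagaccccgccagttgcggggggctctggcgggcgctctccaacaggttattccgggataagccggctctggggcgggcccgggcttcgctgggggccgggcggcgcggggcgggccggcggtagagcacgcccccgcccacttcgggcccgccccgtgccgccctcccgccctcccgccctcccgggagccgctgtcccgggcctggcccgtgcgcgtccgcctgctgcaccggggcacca
Ryr2: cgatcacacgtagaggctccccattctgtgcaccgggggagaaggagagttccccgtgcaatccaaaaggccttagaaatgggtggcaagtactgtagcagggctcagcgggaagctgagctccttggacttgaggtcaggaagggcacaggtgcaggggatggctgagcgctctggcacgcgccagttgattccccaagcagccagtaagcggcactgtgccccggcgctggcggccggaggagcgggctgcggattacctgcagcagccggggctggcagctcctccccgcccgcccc

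RefSeq promoters were at hand for 8 of the 10 genes, all but *Saraf* and *Itpr1*. The NFAT core was in 2 of them, once in *Orai2* 8 bases before the start and at 2 places in *Orai3*, and it was in 61.3% of all 32851 promoters of this length. The AP-1 and forkhead letters were in none of the 8, and in 7.81% and 3.65% of all promoters. The 8 promoters were rich in G and C, from 57.7% in *Orai3* to 78.7% in *Stim1*, against a median of 52.7% over all promoters, and held 11 to 39 CpG dinucleotides against a median of 7. A match describes letters in these windows only.

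*Stim1*, the sensor that activates ORAI channels on strong store depletion, followed the pattern of *Orai2*. It was at 2255, 2281 and 2251 normalized counts in resting Tconvs and at 678, 793 and 703 in activated Tconvs, a fall to 31.98% of the resting level (log2 difference -1.64 ± 0.10; adjusted p = 4.85e-12). In tTregs it was at 874, 1039 and 1213 at rest and 1240, 976 and 1152 after activation, with overlapping groups and a difference of 0.11 ± 0.10 (adjusted p = 0.388). Resting iTregs were at 776, 837 and 706 and restimulated iTregs at 698, 675 and 660, a difference of -0.19 ± 0.10 (adjusted p = 0.217). The tTreg response lay 1.76 ± 0.14 above the Tconv response (adjusted p = 1.95e-09) and the iTreg response 1.46 ± 0.14 above it (adjusted p = 2.12e-08). Those responses of iTregs and tTregs were set against the same Tconv libraries.

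*Stim2*, the sensor that responds to small changes in store calcium and helps to hold resting calcium, went the other way between the cell types at rest. Its values were 412, 453 and 284 in resting tTregs against 176, 167 and 157 in resting Tconvs and 215, 197 and 246 in resting iTregs, with tTregs above all others. It was 1.17 ± 0.16 higher in resting tTregs than in resting Tconvs (adjusted p = 1.95e-06) and 0.78 lower in resting iTregs than in resting tTregs (adjusted p = 0.000138). In activated tTregs it was at 294, 220 and 249, which overlapped the resting libraries, and 0.57 ± 0.16 lower than at rest (adjusted p = 0.00667). That call was lost without the replicate 2 libraries (-0.34), with only those groups in the fit and with array weights. In Tconvs activation moved *Stim2* by 0.13 ± 0.16 (adjusted p = 0.506), and the difference of the responses was -0.70 (adjusted p = 0.015), or -0.43 and not called without the replicate 2 libraries.

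*Saraf* was the most abundant of the 10 genes, also per kilobase of exon. It was at 18047, 18229 and 18937 normalized counts in resting Tconvs and at 3719, 3641 and 3808 in activated Tconvs, so that 20.2% was left (log2 difference -2.31 ± 0.37; adjusted p = 1.18e-05). Resting iTregs were at 4267, 4233 and 4296 and restimulated iTregs at 3534, 3491 and 3438, near activated Tconvs. In resting tTregs it was at 1625, 7666 and 9935, and replicate 1 stood apart below every other library, which also set the wide SE of *Saraf* in all comparisons.

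Results on *Saraf* that use resting tTregs depend on that library. The difference of activated tTregs (8460, 5811 and 6461) from resting tTregs was 0.45 ± 0.37 with it (adjusted p = 0.348) and -0.36 without it (adjusted p = 0.016), neither of them called, and it was called at -0.51 when the replicate 1 libraries of all groups were left out (adjusted p = 0.00331). The difference of resting tTregs from resting Tconvs was -1.88 with it (adjusted p = 0.000176) and -1.08 without it (adjusted p = 3.67e-08), although the call was lost, at an adjusted p of 0.0614, when only those groups were fitted. The response of tTregs exceeded that of Tconvs by 2.76 with it and 1.95 without it (adjusted p = 0.00019 and 8.04e-10). The difference of resting iTregs from resting tTregs was -0.22 with it (adjusted p = 0.587) and -1.033 without it (adjusted p = 2.69e-08). Activated tTregs were 0.87 above activated Tconvs (adjusted p = 0.0432), a call lost without the replicate 2 or the replicate 3 libraries (adjusted p = 0.146 and 0.107).

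**Figure D1:**
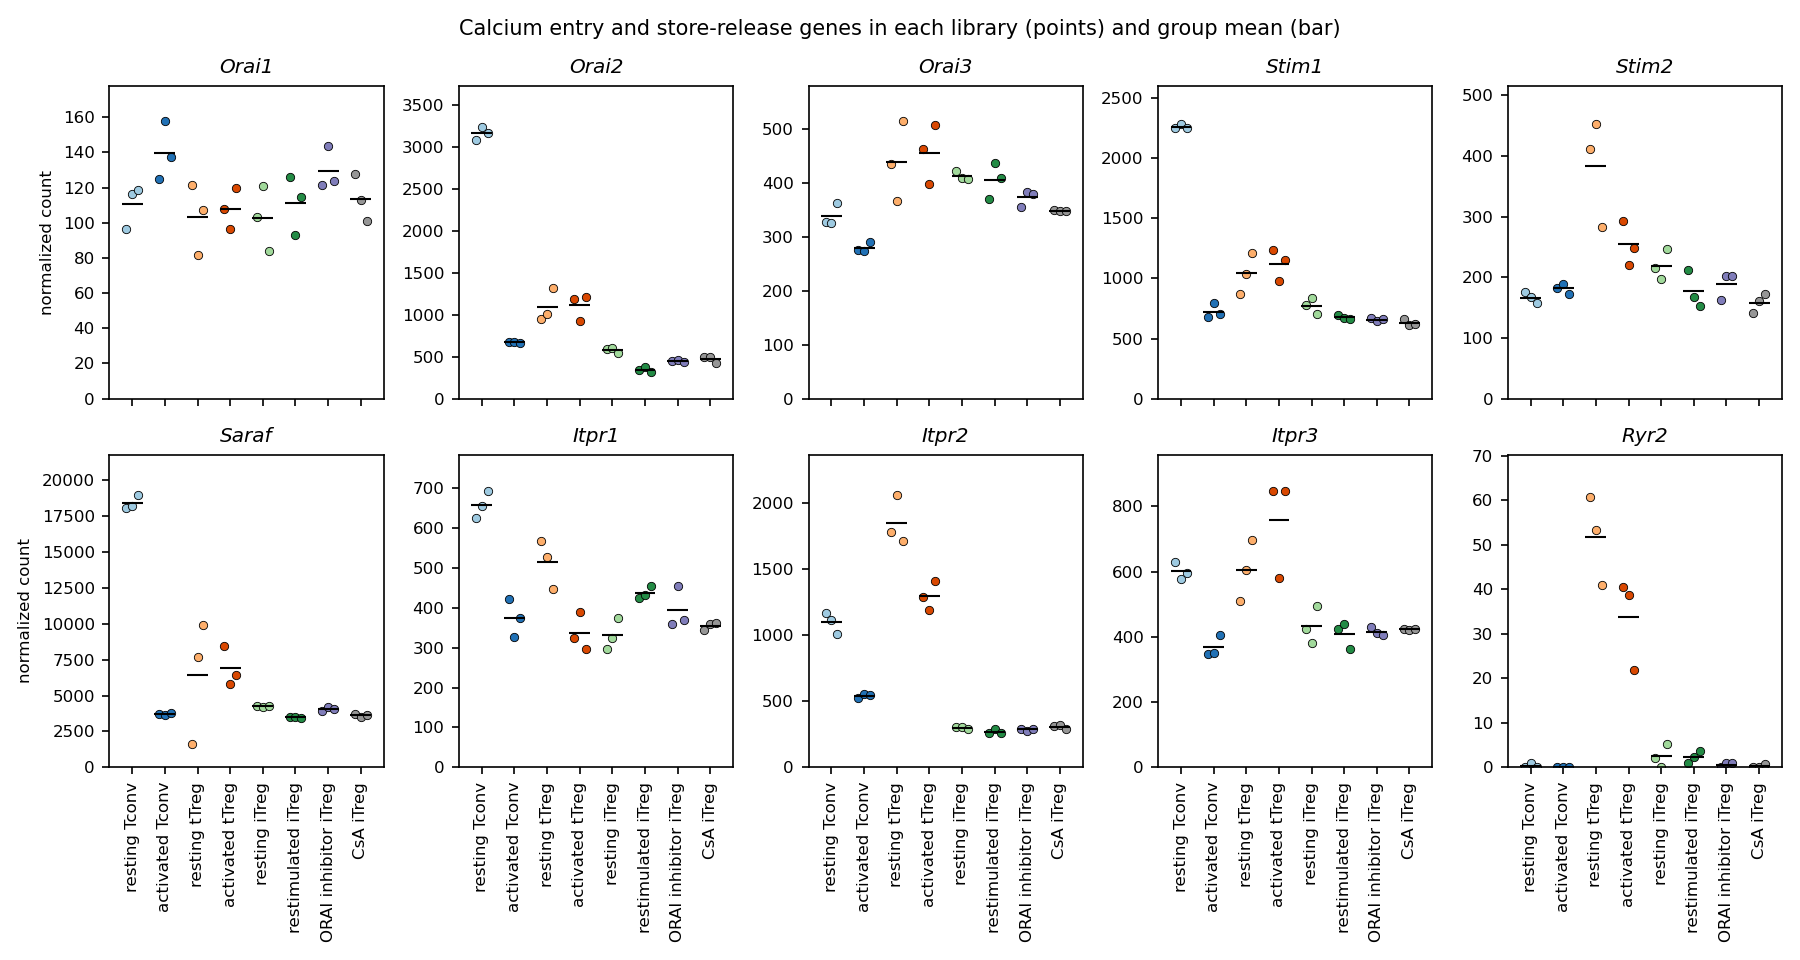
Normalized counts (vertical axis, from 0, a separate scale for each gene) of the 10 genes in the 8 groups; points are libraries and bars are group means (n = 3). *Orai2*, *Stim1* and *Saraf* are highest in the 3 resting Tconv libraries, *Itpr2* in the 3 resting tTreg libraries, and *Ryr2* is at 21.8 or more in the tTreg libraries and at 5.31 or less in all others.

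*Itpr2* set tTregs and iTregs furthest apart among the IP3 receptor genes. IP3 receptors form tetramers and differ in their affinity for IP3, with type 2 the most sensitive. *Itpr2* was at 1780, 2058 and 1711 normalized counts in resting tTregs, at 1165, 1110 and 1008 in resting Tconvs and at 302, 303 and 293 in resting iTregs, with no overlap. Resting iTregs were 2.62 ± 0.08 below resting tTregs (adjusted p = 3.34e-17) and 1.86 ± 0.08 below resting Tconvs (adjusted p = 7.46e-15). Activation lowered it in Tconvs to 526, 557 and 543, a log2 difference of -1.01 ± 0.08 (adjusted p = 5.29e-10). In tTregs it fell to 1287, 1186 and 1410, a difference of -0.51 ± 0.08 (adjusted p = 4.25e-05), which was below the fold threshold without the replicate 2 libraries at -0.37. The 12 iTreg libraries of all 4 groups lay between 258 and 322, below every Tconv and tTreg library.

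*Itpr1*, the type most studied in neurons and also used by T cells, was highest in resting Tconvs at 625, 656 and 693. It fell with activation in Tconvs, to 422, 326 and 376 (log2 difference -0.82 ± 0.12; adjusted p = 4.04e-06), and in tTregs, from 569, 527 and 446 to 325, 390 and 296 (-0.61 ± 0.12; adjusted p = 0.000394). The difference of these responses was 0.21, with a 95% interval from -0.15 to 0.56. In iTregs the 3 restimulated libraries, at 424, 431 and 454, lay above the resting ones at 296, 324 and 375, and the difference of 0.40 ± 0.12 had an adjusted p of 0.022 but missed the fold threshold. The iTreg response was above that of Tconvs by 1.22 ± 0.17 (adjusted p = 3.61e-06) and above that of tTregs by 1.01 ± 0.17 (adjusted p = 0.000136).

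*Itpr3* was at 630, 578 and 594 in resting Tconvs and at 347, 352 and 405 in activated Tconvs, a log2 difference of -0.71 ± 0.13 (adjusted p = 7.47e-05). In tTregs it was at 510, 603 and 697 at rest and at 846, 579 and 846 after activation, where the groups overlapped and the difference of 0.32 ± 0.13 was not called (adjusted p = 0.0604). The response of tTregs was 1.02 ± 0.19 above that of Tconvs (adjusted p = 0.00013), and that of iTregs 0.63 above it (adjusted p = 0.00764), a call that was lost without the replicate 1 and without the replicate 2 libraries. *Itpr3* did not move past the thresholds in restimulated iTregs, at 423, 440 and 364 against 425, 381 and 495.

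*Ryr2* was read in tTregs and hardly elsewhere. Resting tTregs had 60.8, 53.2 and 41.0 normalized counts (67, 41 and 36 reads) and activated tTregs 40.4, 38.8 and 21.8 (30, 41 and 12 reads). Resting Tconvs had 1 read in 1 of 3 libraries and activated Tconvs had none. The exact counting interval for the activated Tconv group reached up to 1.00 normalized counts. The chosen floor of 3 reads was worth 0.81 over that group. Resting iTregs had 2, 0 and 7 reads and restimulated iTregs 1, 2 and 4.

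From the summed reads the rate in resting tTregs was 166 times that in resting Tconvs, with an exact 95% counting interval from 29.4 to 6615, since the lower group held 1 read. In activated tTregs the rate was 43.4 times what 3 reads over the activated Tconv group would give, where none was read. That ratio is against a chosen floor and is not a lower bound. Resting tTregs were 18.9 times resting iTregs (interval 9.71 to 42.3), and activated tTregs 15.1 times restimulated iTregs (7.00 to 38.6). These intervals cover counting error only and, given how *Ryr2* passed the filter, are no test of a difference. In the fit across libraries activation of tTregs moved it by -0.64, with an interval from -1.75 to 0.48. Resting iTregs and activated Tconvs differed by 9 reads in all, too few to compare.

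The B cell gene *Cd79b* moved with *Ryr2*, at 122 to 126 normalized counts in resting and 85.4 to 122 in activated tTregs against 5.27 to 17.2 in Tconvs and 11.99 to 36.9 in the iTreg groups. Of the other B cell genes given here, *Cd79a* was at 1.81 to 14.3 in tTregs and 6.29 to 22.6 in Tconvs, and *Ms4a1* was at 0 in every library. The part of *Cd79b* in the *Ryr2* values was not tested. Per kilobase of exon *Ryr2* reached only 1.79 ± 0.35 normalized counts (SD, n = 3) in resting tTregs, where *Itpr2* was at 125 ± 12.4.

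Across the 9 genes other than *Ryr2*, activation of Tconvs lowered 6 and raised none: *Orai2*, *Stim1*, *Saraf* and the 3 IP3 receptor genes. Of all genes tested 50.3% were called in this comparison, 24.8% higher and 25.5% lower, and the median log2 difference was -0.82 over the 9 genes and -0.03 over all genes. Activation of tTregs lowered 3 (*Stim2*, *Itpr1* and *Itpr2*) and raised none, where 23.2% of all genes were called, 13% higher and 10.2% lower. The medians were 0.06 over the 9 genes and 0 over all. With only the tTreg groups in the fit, 1400 of the 11725 genes were called, against 2718 in the fit over all groups. The *Stim2* call was lost there too. The response itself differed between tTregs and Tconvs for 5 genes (36.6% of all genes, 18.6% higher and 18.1% lower), being higher in tTregs for *Orai2*, *Stim1*, *Saraf* and *Itpr3* and lower for *Stim2*.

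Restimulation of iTregs lowered *Orai2* and no other of the 9 genes, where 10.4% of all genes were called, 5.02% higher and 5.36% lower. Against the response of Tconvs, that of iTregs was higher for 6 genes, *Orai2*, *Stim1*, *Saraf* and the 3 IP3 receptor genes, with 44.2% of all genes called, 21.7% higher and 22.6% lower. Each of the 6 started lower in resting iTregs than in resting Tconvs in all 3 libraries. Against the response of tTregs 2 genes differed, *Itpr1* upward and *Orai2* downward, with 21.3% of all genes called, 9.01% higher and 12.3% lower.

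**Figure D2:**
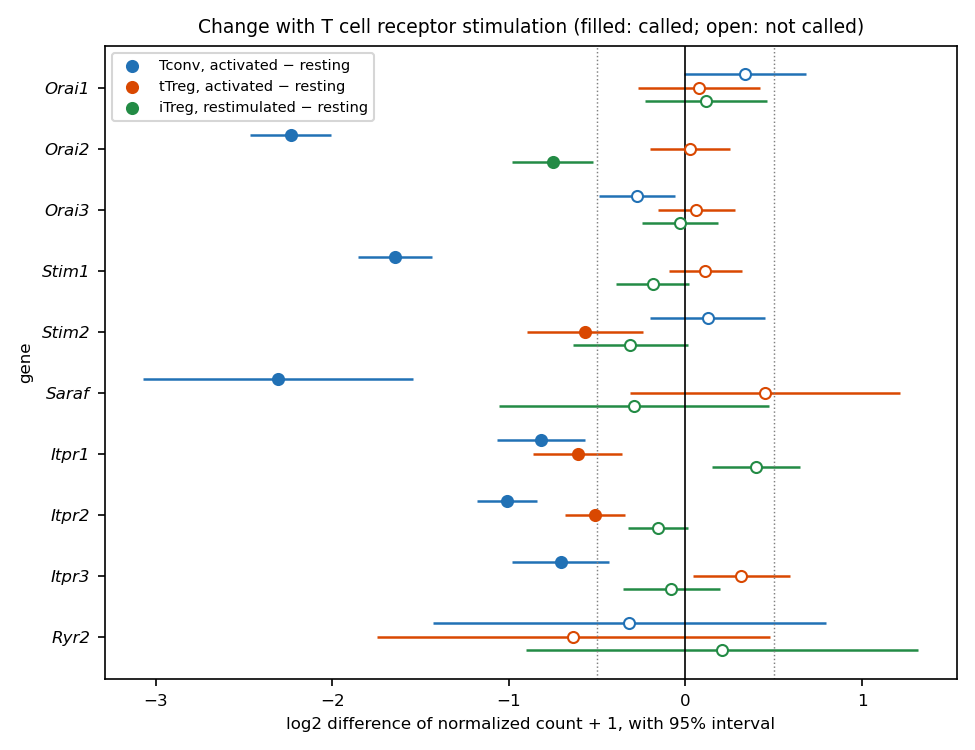
Log2 difference of the normalized count + 1 (horizontal axis) for each gene with activation of Tconvs, activation of tTregs and restimulation of iTregs; bars are 95% intervals, filled points passed the thresholds and dotted lines mark the fold threshold. Filled points for Tconvs run from -2.31 for *Saraf* to -0.71 for *Itpr3*, and *Orai2* at -0.75 is the only filled point for iTregs.

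Tconvs and tTregs were compared within each state, and the resting Tconv and resting tTreg libraries also serve in the responses above. At rest tTregs were below Tconvs for *Orai2* (-1.54), *Stim1* (-1.13) and *Saraf* and above them for *Stim2* and *Itpr2* (0.75), 5 of 9 genes where 39.3% of all genes were called, 20.9% higher and 18.5% lower. After activation tTregs were above Tconvs for 6 of 9 genes and below for none, where 48.6% of all genes were called, 25.7% higher and 22.9% lower. The 6 were *Orai2* (0.72), *Orai3*, *Stim1* (0.63), *Saraf*, *Itpr2* (1.25) and *Itpr3* (1.02). *Orai2* and *Stim1* changed sides between the states, with adjusted p of 7.29e-06 and 1.25e-05 after activation, while their tTreg values did not change past the thresholds.

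The iTregs came from younger mice and from culture, which cannot be told apart from cell type here. Resting iTregs were below resting Tconvs for 5 of 9 genes and above for none (64.3% of all genes called, 34% higher and 30.3% lower): *Orai2* (-2.45), *Stim1* (-1.55), *Saraf* (-2.11), *Itpr1* (-0.99) and *Itpr2* (-1.86). Against resting tTregs they were below for 4 (64% of all genes called, 33.3% higher and 30.7% lower): *Orai2* (-0.90), *Stim2*, *Itpr1* (-0.63) and *Itpr2*. The *Itpr1* call was lost without the replicate 1 libraries, and without resting tTreg replicate 1 alone *Saraf*, *Stim1* (-0.54) and *Itpr3* (-0.59) were below as well. Against activated Tconvs, resting iTregs differed in 2 genes (42.6% of all genes called, 24.2% higher and 18.4% lower): *Orai3* was higher and *Itpr2* lower (-0.85; adjusted p = 1.04e-08). There the median absolute log2 difference was 0.23 over the 9 genes and 0.48 over all genes, against 0.99 and 0.84 for resting iTregs and resting Tconvs.

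**Figure D3:**
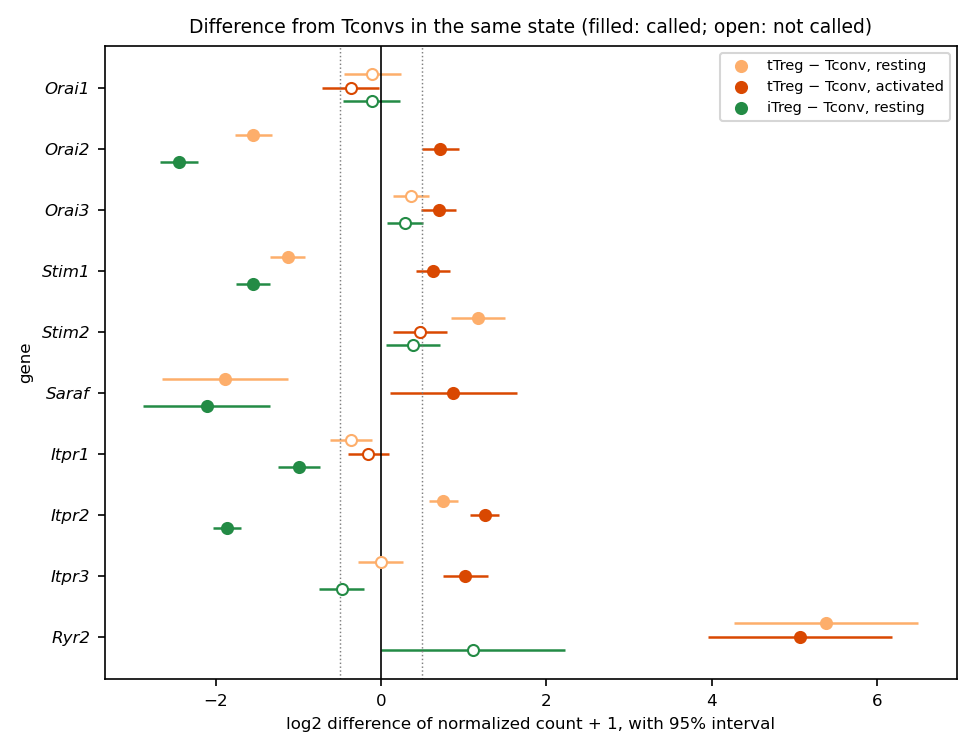
Log2 difference of the normalized count + 1 (horizontal axis) from Tconvs in the same state, for resting tTregs, activated tTregs and resting iTregs; bars are 95% intervals and filled points passed the thresholds, which for *Ryr2* follows from the filter. *Orai2* and *Stim1* lie to the left of 0 for resting tTregs (-1.54 and -1.13) and to the right for activated tTregs (0.72 and 0.63).

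Within families the mix of members shifted, measured as shares of the summed normalized counts per kilobase of exon. *Orai2* made up 71.6% ± 1.2 (SD, n = 3) of the ORAI family in resting Tconvs and 36.5% ± 1.026 in activated Tconvs. In tTregs its share was 41.9% ± 3.48 at rest and 41.2% ± 1.38 after activation. iTregs had the lowest shares, 28.6% ± 0.51 at rest and 19.2% ± 1.25 after restimulation, where *Orai3* held 64.2% ± 2.88. *Orai1* held 6.61% in resting Tconvs and 20.2% in activated Tconvs at a level that was not called different.

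The summed ORAI level per kilobase was 727 ± 21.9 in resting and 302 ± 7.83 in activated Tconvs, 430 ± 67.7 in resting tTregs and 333 ± 15.4 in resting iTregs. *Stim2* held 13.0% ± 0.63 of the STIM level in resting Tconvs, 42.6% ± 9.13 in resting tTregs and 31.4% ± 0.98 in activated tTregs. *Itpr2* held 56.8% ± 3.16 of the IP3 receptor level in resting tTregs and 23.6% ± 2.43 in resting iTregs, where *Itpr3* held 55.5% ± 2.63. The summed IP3 receptor level was 220 ± 13.6 in resting tTregs, 176 ± 5.64 in resting Tconvs and 86.4 ± 7.71 in resting iTregs. No test was run on the shares.

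**Figure D4:**
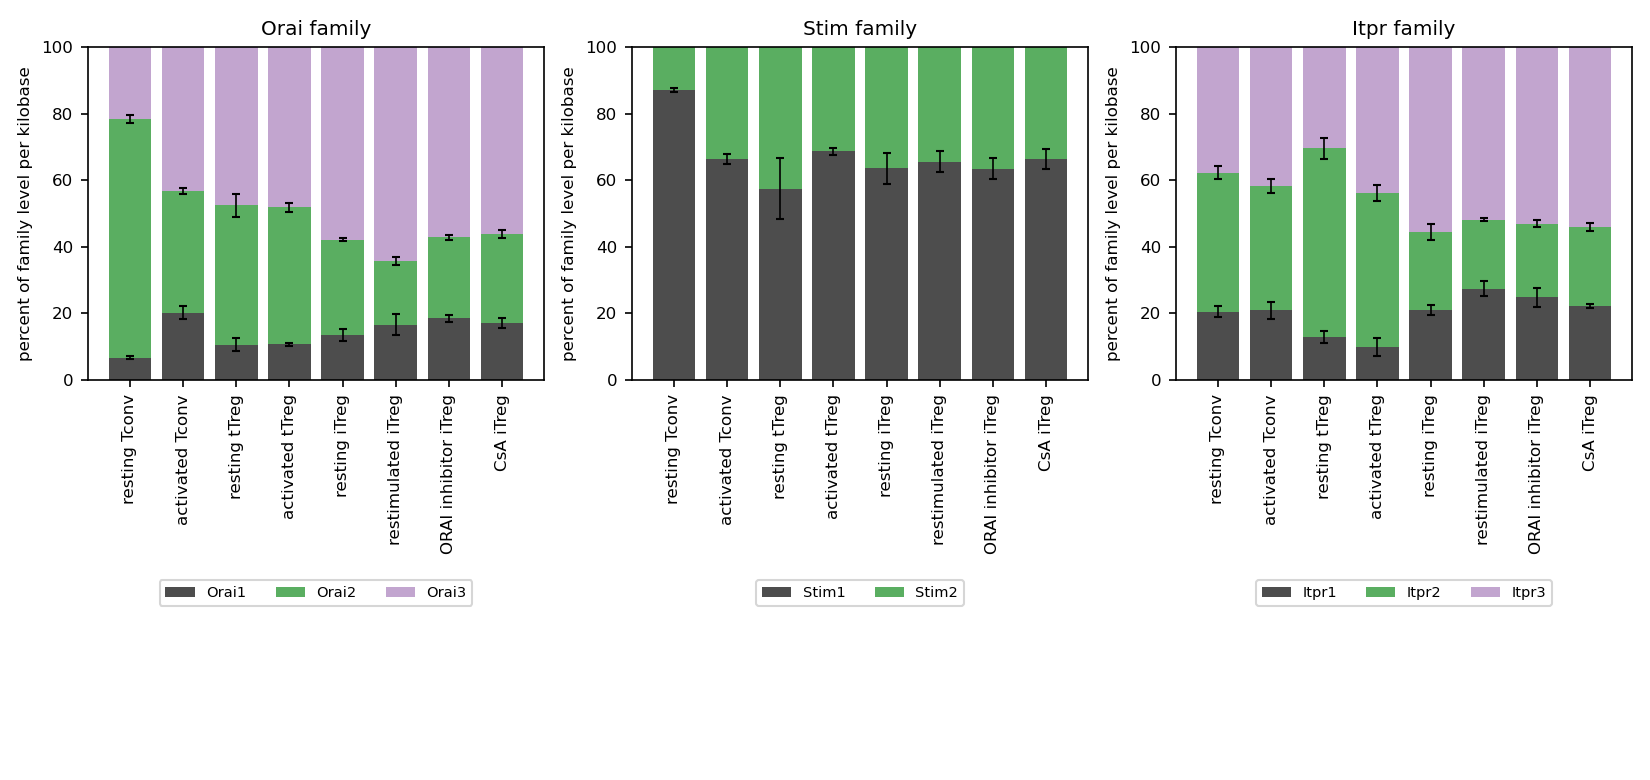
Share of each gene in the summed level per kilobase of its family (vertical axis, percent), as group means; each error bar is the SD over 3 libraries of the share of the segment it tops. The *Orai2* segment is 71.6% in resting Tconvs and 19.2% in restimulated iTregs, and the *Itpr2* segment is 56.8% in resting tTregs and 23.6% in resting iTregs.

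With the ORAI inhibitor none of the 10 genes differed from restimulated iTregs by limma, edgeR or DESeq2, where limma called 1.98% of all genes, and 1 had an unadjusted p below 0.05. With CsA none was called by any of the 3 tools either, where limma called 1.59% of all genes. An unadjusted p below 0.05 was seen for 4 (*Orai2*, *Itpr1*, *Itpr2* and *Ryr2*, the last with 1 read with CsA). The share of all genes at that unadjusted cutoff is not given here, so nothing particular to these genes is read from such counts. *Orai2*, the gene that fell with restimulation, was at 446, 458 and 442 normalized counts with the ORAI inhibitor and at 491, 499 and 430 with CsA. Both groups lay above all restimulated libraries (337, 378 and 318) and below all resting ones (591, 609 and 539). The difference from restimulated iTregs was 0.38 ± 0.11 with the ORAI inhibitor (adjusted p = 0.0557) and 0.46 ± 0.11 with CsA (adjusted p = 0.022), short of the thresholds. The fall from resting iTregs was 0.75 on the log2 scale after restimulation alone, and the difference from resting iTregs was -0.37 with the ORAI inhibitor (adjusted p = 0.0357) and -0.29 with CsA (adjusted p = 0.0782).

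The other genes apart from *Ryr2* differed from restimulated iTregs by -0.15 to 0.23 with the ORAI inhibitor. *Itpr1* was at 360, 454 and 369 with the ORAI inhibitor and at 344, 359 and 361 with CsA, where all 3 libraries lay below those of restimulated iTregs, and the CsA difference of -0.30 ± 0.12 was not called (adjusted p = 0.226). *Ryr2* had 2 reads in all with the ORAI inhibitor and 1 read with CsA, too few to compare. The inhibitor groups were not told apart from each other for any of the 10 genes, with 0.0853% of all genes called, and none had an unadjusted p below 0.05, or was called by edgeR or DESeq2. The interval of the *Orai2* difference between them ran from -0.30 to 0.15. Against resting iTregs none of the 10 genes was called with the ORAI inhibitor (5.11% of all genes) or with CsA (7.04%) by limma, edgeR or DESeq2. An unadjusted p below 0.05 was seen for 2 and 5 of the 10, and *Ryr2* was among the 5. These counts too have no share of all genes at that cutoff beside them.

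**Figure D5:**
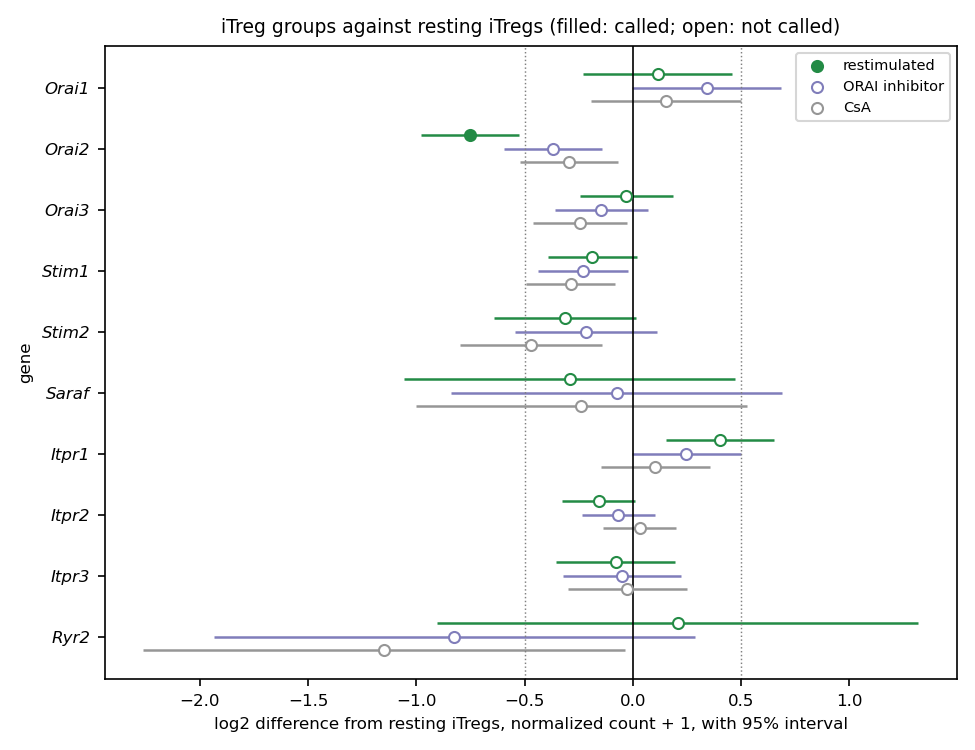
Log2 difference of the normalized count + 1 (horizontal axis) from resting iTregs for restimulated iTregs and for iTregs with the ORAI inhibitor or CsA; bars are 95% intervals and filled points passed the thresholds. For *Orai2* the points are at -0.75, -0.37 and -0.29, and the first is the only filled one.

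Ranked by group means, the 9 genes other than *Ryr2* gave 63 pairs of neighbouring groups, and 8 of these differed past the thresholds. The pairs were picked from the same means and no share over all genes was computed, so the 8 only describe the order. Resting Tconvs stood above the next group for *Orai2*, *Stim1* and *Saraf*, which was activated tTregs each time (log2 differences 1.52, 1.02 and 1.43). Resting tTregs stood above activated Tconvs for *Orai2* (0.69). For *Itpr2* the steps from resting to activated tTregs, from resting to activated Tconvs and from activated Tconvs to the highest iTreg group (0.82) all passed. The last was the step from resting to activated tTregs for *Stim2*. No neighbouring groups of *Orai1*, *Orai3*, *Itpr1* or *Itpr3* differed.

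Over the 8 group means, which share cell types and libraries, *Stim1* and *Saraf* had a Pearson r of 0.98, *Orai2* and *Stim1* 0.97, and *Orai2* and *Saraf* 0.94. For *Stim2* and *Ryr2* r was 0.91. *Ryr2* had few reads outside tTregs, so that value largely restates that both genes were highest in the tTreg groups. The genes whose 8 means were most like those of *Orai2* were *Add3*, *Usp12* and *Brdt* (r = 0.994, 0.993 and 0.991), among 8483 genes that ranged over at least 1 log2 unit. Those most like *Stim1* were *Ttyh3*, *Kctd2* and *Pex5* (0.995, 0.992 and 0.987), and *Kctd2* was also the first for *Saraf* (0.981). *Itpr2* was closest to *Relch*, *Ksr2* and *Rab5b* (0.999, 0.997 and 0.997). *Itpr1* was closest to *Plcg1* (0.984), the phospholipase C that makes IP3 downstream of the T cell receptor.

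Genes that work with these proteins were counted in 6 lists, of which 67 genes were tested. Activation of Tconvs raised 9 of the 67 and lowered 23, where 50.3% of all genes were called, and activation of tTregs raised 5 and lowered 10, where 23.2% were. Restimulation of iTregs raised 1 and lowered 3, where 10.4% were called. Against restimulated iTregs the ORAI inhibitor changed none of the 67 and CsA lowered 2, where 1.98% and 1.59% of all genes were called. Nothing particular to the partners is read from these counts.

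Among partners of IP3 receptors, *Tespa1*, needed for receptor signalling in thymocytes and a binding partner of IP3 receptors, fell in all 3 cell types. Its group means were 606 ± 73.4 and 58.4 ± 14.8 (SD, n = 3) in resting and activated Tconvs, a log2 difference of -3.37 (adjusted p = 2.46e-13). In tTregs the means were 458 ± 76.5 and 191 ± 15.5, a difference of -1.24 (adjusted p = 7.86e-06), and in iTregs 182 ± 30.2 and 70.1 ± 8.61, a difference of -1.36 (adjusted p = 7.1e-06). *Ahcyl2*, of the IRBIT family that binds IP3 receptors, was at 9816 ± 1245 in resting tTregs against 423 ± 32.3 in resting Tconvs and 1842 ± 279 in resting iTregs, and was 4.53 higher in tTregs than in Tconvs (adjusted p = 2.23e-18). CsA lowered it from 1322 ± 3.11 to 932 ± 9.33 in restimulated iTregs (-0.50; adjusted p = 0.0157), a value at the fold threshold.

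In the lists of IP3 metabolism and of STIM and ORAI regulators, 7 of 16 and 5 of 12 tested genes were lower in activated than in resting Tconvs. In these lists 0 and 1 were higher, where 24.8% of all genes were higher and 25.5% lower. In tTregs 4 and 1 were lower and 0 and 1 higher, where 10.2% of all genes were lower and 13% higher. *Itpkb*, the kinase that phosphorylates IP3, fell in Tconvs from 624 ± 27.1 to 258 ± 20.2 (-1.27; adjusted p = 1.86e-12) and in tTregs from 964 ± 2.45 to 540 ± 5.97 (-0.84; adjusted p = 1.97e-08). *Esyt2*, a tether of endoplasmic reticulum and plasma membrane, fell in Tconvs from 1911 ± 61.03 to 580 ± 68.0 (-1.72; adjusted p = 6.78e-11). *Stc2*, stanniocalcin, a secretory-pathway protein that dampens store-operated entry, was read mainly in iTregs, with a mean of 305 ± 21.3 at rest. Resting tTregs had 4.65 ± 2.12, and resting Tconvs had 1.98 ± 1.85, which is under the floor. It passed the filter through its iTreg libraries, so no test of that difference is given.

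Among store buffers *Calr*, calreticulin, rose from 1622 ± 63.1 to 5116 ± 131 in Tconvs (1.66; adjusted p = 2.35e-12) and from 1789 ± 317 to 3262 ± 321 in tTregs (0.88; adjusted p = 4.31e-07), with 5649 ± 459 in resting iTregs. Of the 11 tested buffers and leak genes 4 rose and 1 fell in Tconvs, where 24.8% of all genes rose and 25.5% fell. In tTregs 2 rose and none fell, where 13% of all genes rose and 10.2% fell. In the list of other entry channels 4 of 7 fell and 1 rose in Tconvs, and 1 fell and 1 rose in tTregs, beside the same shares of all genes. Nothing particular to these lists is read from the counts. *P2rx7*, the ATP-gated channel, was 4.06 higher in resting tTregs than in resting Tconvs (871 ± 74.1 against 51.2 ± 3.85; adjusted p = 5.31e-18), and CsA lowered it in restimulated iTregs from 289 ± 18.1 to 201 ± 26.3 (-0.53; adjusted p = 0.00839). Among relatives and partners of ryanodine receptors *Tpcn1*, an endolysosomal channel, fell in Tconvs from 618 ± 37.1 to 145 ± 21.7 (-2.09; adjusted p = 5.3e-13), and the tTreg response lay 2.07 above this (adjusted p = 8.47e-10). *Ryr3* was low throughout, at 13.2 ± 0.94 in resting and 1.01 ± 1.07 in activated Tconvs and 24.8 ± 12.2 in resting tTregs.

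The 10 genes lie on 6 autosomes in GRCm38. By GENCODE the positions of those the results turn on are chr5:136147459-136170713 for *Orai2*, chr7:102267806-102437319 for *Stim1*, chr5:53998499-54121057 for *Stim2*, chr6:146108299-146502223 for *Itpr2* and chr13:11553102-12106945 for *Ryr2*, and none of these shares exonic bases with another gene. Over the 10 genes at most 2.59% of exonic bases, in *Itpr3*, overlap another annotated gene. The libraries do not mark strand, so such reads cannot be split between the genes.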

How the data were processed

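RNA-seq libraries of 8 groups of mouse CD4+ T cells, 3 each, were analysed; the chromatin libraries of the series were not analysed here. The study used a SMART-seq type protocol, which copies full-length polyadenylated RNA without molecular identifiers or strand. Per the study's methods and the submitters' processing notes, the authors trimmed reads (cutadapt 1.18), aligned them to mm10 (STAR 2.5.3) and counted genes (RSEM 1.3.0, GENCODE). The deposited signal values are whole gene counts that the authors divided by 1 size factor per library, called normalized counts here. Dividing by the step between values gave whole reads for 100% of values (tolerance 0.01).

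The 11725 genes that reached 10 normalized counts in 3 libraries or more were fitted with limma 3.58.1 (R 4.3.3, trend) on log2(value + 1), with 8 group means and Benjamini-Hochberg adjustment. The fit was tested on simulated data. The recovered reads were also tested with edgeR 4.0.16 and DESeq2 1.42.0. Exact counting intervals for *Ryr2* were computed with SciPy 1.17.1. Levels were compared between genes only per kilobase of merged exons (GENCODE for GRCm38, an older release than the authors'). In groups of 3, replicate spread is itself known only roughly, and deeper libraries give smaller counting error.

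The genes, partner lists, markers and tests were chosen with earlier results of these data known. Partner genes were named from those with the 2 largest changes among called genes of each list in a comparison. The 3 genes closest to each of the 10 were found by Pearson r. Alternatives covered normalization, filter, pseudocount, model, tool and leaving out each replicate. The result of 1 marker gene is not reported here.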

Additional observations from a re-analysis of the deposited data

Results flagged for a closer look

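The responses to stimulation differed between cell types by the test of the difference itself (limma, log2 scale, adjusted p under 0.05 and a difference larger than 0.5 in size) in 13 cases. Against activation of Tconvs, that of tTregs was higher for *Orai2* (2.26), *Stim1* (1.76), *Saraf* (2.76) and *Itpr3* (1.02) and lower for *Stim2* (-0.70). The *Saraf* value was 1.95 without resting tTreg replicate 1, and the *Stim2* value was -0.43 and not called without the replicate 2 libraries. Against the same Tconv libraries, restimulation of iTregs was higher for *Orai2* (1.48), *Stim1* (1.46), *Saraf* (2.01), *Itpr1* (1.22), *Itpr2* (0.85) and *Itpr3* (0.63). Against activation of tTregs, restimulation of iTregs was lower for *Orai2* (-0.78) and higher for *Itpr1* (1.01). The duration and strength of stimulation are not stated to be alike for the 3 cell types, so cell type and stimulation cannot be told apart in these differences. Groups of 3 were not tested for single outlying libraries.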

How the results depend on the processing

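Of 49 called values of the 10 genes, 38 kept their call under every alternative run, 11 lost it under some and none reversed; of 111 values that were not called, 19 passed under some alternative. The called values and the counts of genes in this paragraph and the next include *Ryr2*. Its calls between tTregs and other groups go with how it passed the filter and are no test of a difference. Its call between resting iTregs and activated Tconvs rests on 9 reads in all, too few to compare. Most are given without the share of all genes at the same setting, so they describe the calls only. Without the fold threshold, resting iTregs differed from resting Tconvs in 8 genes (5 with it), restimulated from resting iTregs in 2 (1), CsA from restimulated iTregs in 1 (0), the ORAI inhibitor from resting iTregs in 1 (0), and neighbouring groups in 15 pairs (9). Without resting tTreg replicate 1, an alternative chosen after seeing the data, 8 genes differed between resting iTregs and resting tTregs. Leaving out each replicate in turn gave 5 to 8 genes there and 1 to 3 for the iTreg against the tTreg response. It gave 4 to 6 for the iTreg against the Tconv response. For activation of tTregs it gave 2 to 4, where 2082 to 2905 of all 11725 genes were called. *Saraf* in activated against resting tTregs ranged from -0.51 to 0.99 over these fits, with the reversed value of -0.51 coming without replicate 1, and the cause was not tested. The fold of *Ryr2* in resting tTregs over resting Tconvs ran from 3.40 to 7.87 on the log2 scale, with a pseudocount of 5 and of 0.1.

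Replicate numbers are shared by the groups, but same-numbered libraries deviated together weakly or not at all (mean correlation 0.035, lowest -0.395, over 28 pairs of groups, none with all correlations over 0.1; within the iTreg groups the mean was 0.107, against -0.054 for libraries of different numbers), so no pairing was assumed. With the replicate block the counts were the same in all 16 comparisons: 6, 3 and 5 for activation of Tconvs, of tTregs and their difference, 6 and 7 for tTregs against Tconvs at rest and activated, 5, 5 and 3 for resting iTregs against resting Tconvs, resting tTregs and activated Tconvs, 1 for restimulation, 6 and 2 for its difference from Tconvs and tTregs, and 0 with inhibitors. Size factors set within the 2 sets of libraries gave no value for the iTreg responses against the others or for neighbouring groups. Depth limits *Ryr2* alone among the 10 genes, with 0 to 9 reads in total in each group outside tTregs.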
